A study of Homo sapiens with 12 samples.

Results

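The genes described here are 52 genes of DNA replication and replication-coupled repair, chosen by symbol and measured among 20318 gene entries of the deposited expression table. They fall into 11 origin licensing genes, 28 replication fork genes, 5 genes of chromatin assembly and maintenance and 8 repair and checkpoint genes. RNA was sequenced from wild-type (WT) Z138 cells, an established human mantle cell lymphoma line of B cell origin, after exposure to AU-15330 at 0.5 µM or to its solvent DMSO. AU-15330, a proteolysis-targeting chimera, brings the chromatin remodelling ATPases SMARCA2 and SMARCA4 and the subunit PBRM1 to degradation. The groups were AU-15330 at 24 h (n = 3), DMSO at 24 h (n = 3), AU-15330 at 8 h (n = 3) and DMSO at 8 h (n = 2). Another labelled DMSO sample at 8 h shares its column with replicate 2, value for value, and was counted with it as 1 library. All groups are of this 1 cell line. The labels do not say whether replicates were separate cultures, and p-values here therefore reflect the scatter among these libraries only, which may be technical. Time is labelled as the batch, so 24 h against 8 h cannot be told apart from the batch, while each treatment comparison lies within a batch.

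Before S phase, the origin recognition complex, CDC6 and CDT1 load a ring of MCM proteins onto DNA, a step called licensing. CDC45 and the GINS complex then turn the ring into an active helicase, and DNA polymerases, the sliding clamp PCNA, its loader RFC and DNA ligase copy the unwound strands. CAF-1, UHRF1 and DNMT1 restore nucleosomes and DNA methylation behind the fork, and the Fanconi anaemia and BRCA proteins handle stalled or damaged forks. Many of these genes are transcribed in late G1 and S phase by E2F factors, so their RNA is commonly read as a sign of proliferation in lymphoma cells.

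All 52 genes were detected at 1 CPM (the usual depth-scaled count) or more in at least 3 libraries, a level that 12722 entries passed. Their normalised counts ranged from 1489 to 80958 over genes and libraries. Estimated totals were 50746999 to 67558721 counts per library. The 7 B cell and mantle cell lymphoma markers were all detected, with a summed level of 3330 to 3470 CPM under AU-15330 and 4110 to 4160 under DMSO at 24 h, and 3130 to 3220 under AU-15330 and 3630 to 3650 under DMSO at 8 h. T cell markers (1 of 5 tested) summed to 1.7 to 5.81 CPM under AU-15330 and 13.1 to 13.9 under DMSO, and epithelial and stromal markers (2 of 5 tested) to 2.33 to 6.12 under AU-15330 and 12.6 to 23.5 under DMSO. Myeloid and erythroid markers stayed under 1 CPM in every library. The part of these marker levels in the results below was not tested. RNA of the degrader's targets, which does not report their protein, had a log2 change of -0.87 ± 0.070 for SMARCA2 (SE, adjusted p = 1.11e-06), -0.28 ± 0.048 for SMARCA4 and -0.16 ± 0.051 for PBRM1 at 24 h. At 8 h the log2 changes were -0.48 ± 0.079 for SMARCA2, -0.16 ± 0.053 for SMARCA4 and 0.00 ± 0.057 for PBRM1, the last of which did not pass the test.

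Under AU-15330 the replication genes split rather than moving as a block. At 24 h, 17 of 52 were higher than under DMSO, 16 were lower and 19 missed the threshold. At 8 h, 17 were higher, 8 were lower and 27 did not pass. A gene passed when its adjusted p from limma, with Benjamini-Hochberg adjustment over all 12722 entries, was under 0.05. Of all entries, 24.7% were called higher and 26.2% lower at 24 h (50.9% in either direction), and 22.9% were higher and 21.4% lower at 8 h (44.2% in either direction). Among the replication genes the share called was 63.5% at 24 h and 48.1% at 8 h. This comparison and that of change sizes below were not matched for expression level. Each replication gene averaged at least 1808 normalised counts, where 59.4 equal 1 CPM. In bulk RNA, fewer cells of a kind and less RNA per cell cannot be told apart, and a shift in the share of cells in S phase falls under the same limit.

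The changes were small. The median log2 change was 0.03 at 24 h and 0.05 at 8 h, against 0.01 and 0.02 over all entries tested. The median size of a change regardless of sign was 0.15 at 24 h and 0.13 at 8 h, against 0.21 over all entries at both times. Only ORC6 at 24 h and ORC6 and UHRF1 at 8 h fell by at least 1.5-fold, and no replication gene rose by as much. Of all entries, 9.72% were lower and 5.9% higher by at least 1.5-fold at 24 h, and 9.13% were lower and 3.93% higher at 8 h. For the 19 genes that did not pass at 24 h, 95% confidence intervals of the log2 change lay between -0.21 and 0.28, and for the 27 at 8 h between -0.30 and 0.39. Library values of the groups did not overlap for 35 of the 52 genes at 24 h (67.3%) and 33 at 8 h (63.5%), where 59% and 62.5% of all entries had such values. BRCA1 at 24 h was the only called gene whose groups overlapped at the time of its call. Under quantile normalisation the split at 24 h was 21 higher and 11 lower. All entries moved the same way, from 3145 higher and 3332 lower to 3855 and 2913. The number called higher at 8 h fell without DMSO replicate 2 at 8 h.

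**Figure D1:**
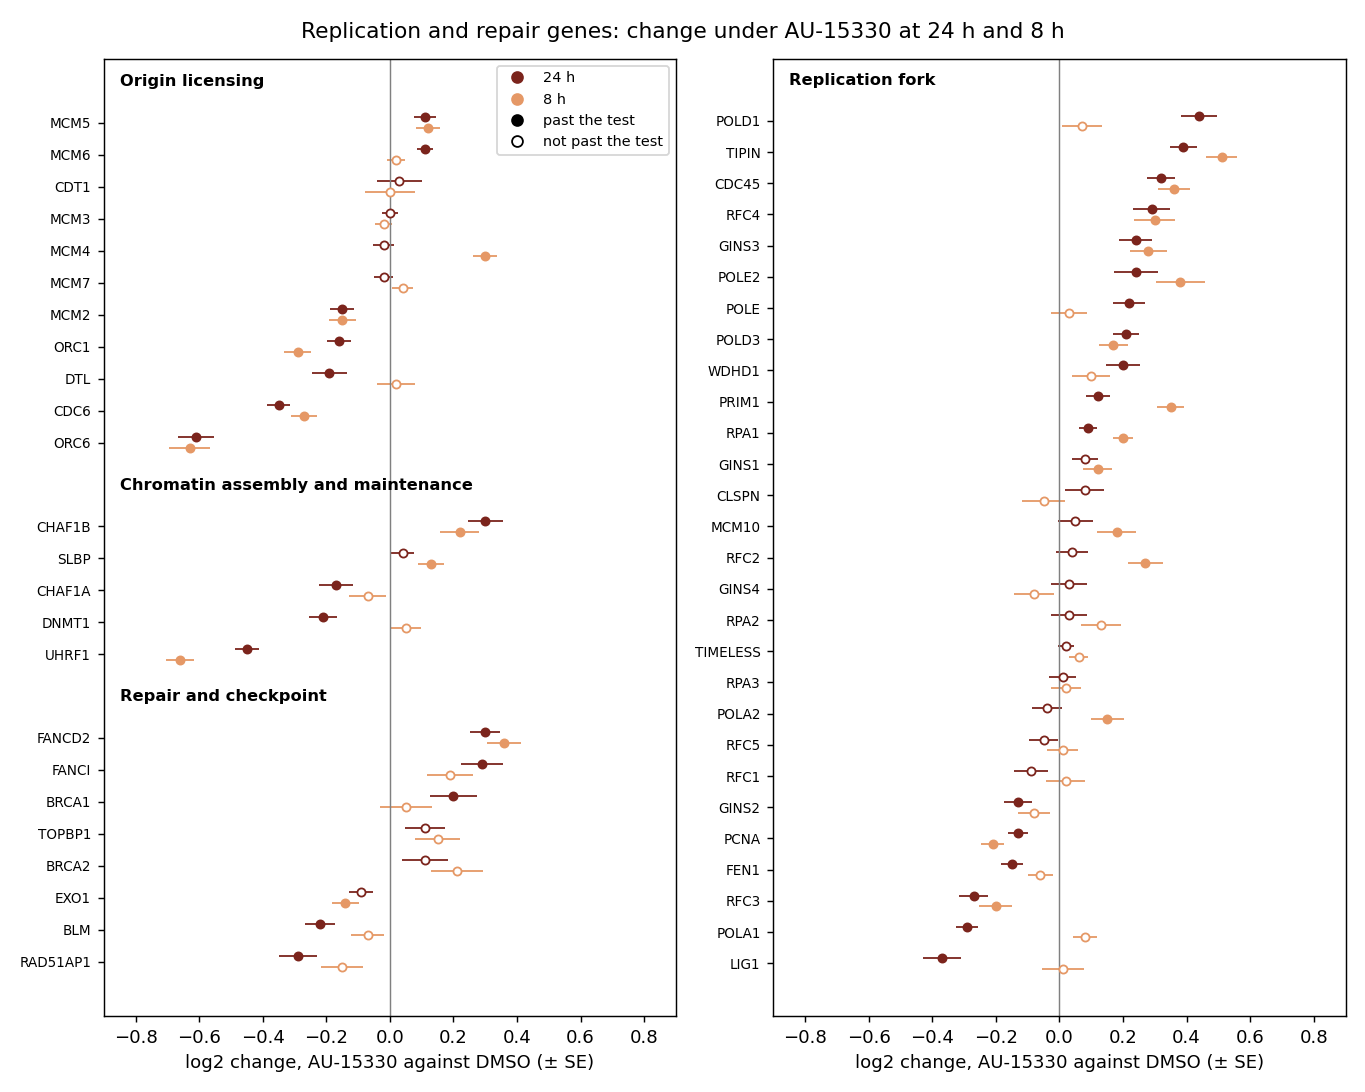
Log2 change under AU-15330 against DMSO (horizontal axis, ± SE) of the 52 genes, by role, at 24 h (dark, upper point of each pair) and 8 h (light, lower point). Filled points passed the test. ORC6 and UHRF1 lie farthest to the left, and TIPIN at 8 h and POLD1 at 24 h farthest to the right.

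By role, more licensing and chromatin genes were called lower than higher at 24 h, and more fork genes higher than lower. The licensing and fork medians lay near that of all entries tested. Of 11 licensing genes, 2 were higher and 5 lower at 24 h, and 2 were higher and 4 lower at 8 h. Of 28 fork genes, 11 were higher and 6 lower at 24 h, and 12 were higher and 2 lower at 8 h. The 5 chromatin genes gave 1 higher and 3 lower at 24 h, and 2 higher and 1 lower at 8 h. The 8 repair genes gave 3 higher and 2 lower at 24 h, and 1 of each at 8 h. Median log2 changes at 24 h were -0.02 for licensing, 0.04 for fork, -0.17 for chromatin and 0.11 for repair genes. At 8 h they were 0.00, 0.09, 0.05 and 0.10 in that order of roles. Under quantile normalisation at 24 h the chromatin genes were 2 higher and 2 lower, and the fork genes 13 higher and 3 lower. Of all entries, 24.7% were higher and 26.2% lower at 24 h, with a median of 0.01. At 8 h, 22.9% were higher and 21.4% lower, with a median of 0.02. At 24 h the shares were 18.2% higher and 45.5% lower for licensing, and 39.3% and 21.4% for fork genes. Differences between roles were not tested.

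Averaged over its genes and set against the mean of the 11 libraries, the fork group lay at 0.03 (log2) in every AU-15330 library at 24 h, against -0.04 to -0.02 in DMSO libraries. At 8 h it lay at 0.03 to 0.06 under AU-15330 and at -0.08 to -0.06 under DMSO. The licensing group lay the other way, at -0.04 to 0.00 under AU-15330 and 0.07 to 0.11 under DMSO at 24 h, and at -0.10 to -0.05 and 0.01 at 8 h. Within it, the 6 genes of the MCM ring did not lie lower, at 0.02 to 0.03 under AU-15330 and 0.01 to 0.03 under DMSO at 24 h, and at -0.04 to 0.01 and -0.08 to -0.05 at 8 h. Chromatin genes lay at -0.04 to -0.02 under AU-15330 and 0.05 to 0.09 under DMSO at 24 h, and at -0.08 to -0.04 and 0.01 to 0.02 at 8 h. The repair group overlapped at 24 h, with 0.00 to 0.09 under AU-15330 and -0.03 to 0.02 under DMSO, and stood apart at 8 h, with 0.00 to 0.02 and -0.11 to -0.04. All entries tested also lay lower on this scale, at -0.02 to -0.01 under AU-15330 and 0.03 to 0.04 under DMSO at 24 h, and at -0.03 to -0.02 and 0.01 to 0.02 at 8 h. A list of 20 mitosis genes lay at -0.09 to -0.05 under AU-15330 and 0.03 to 0.09 under DMSO at 24 h, and at -0.06 to -0.01 and 0.08 to 0.13 at 8 h. The part of these shifts in the replication genes' values was not tested.

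**Figure D2:**
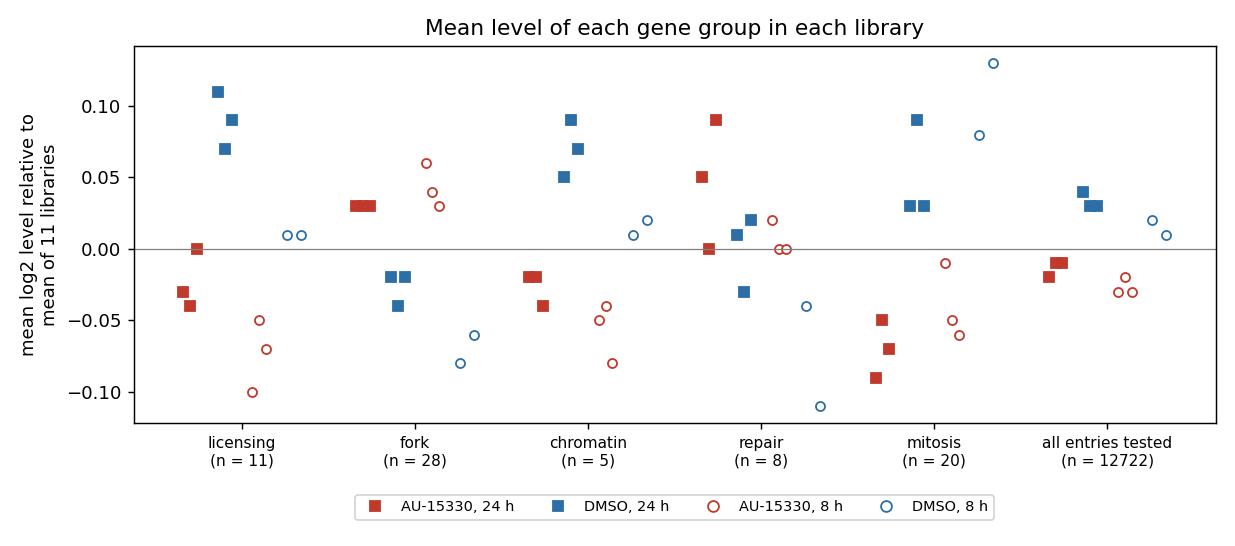
Mean log2 level of each gene group in each library, relative to the mean of the 11 libraries (vertical axis), for the 4 roles, 20 mitosis genes and all 12722 entries tested. Each point is a library, red for AU-15330 and blue for DMSO, with squares for 24 h and open circles for 8 h. Fork genes sit higher under AU-15330, and licensing, chromatin and mitosis genes sit lower, as does the mean of all entries tested.

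Promoter sequence is shown for 6 of the genes with the clearest changes in either direction, since the E2F site is the element these genes are best known to share. RefSeq windows on GRCh38.p14, from 250 bases before to 50 bases after an annotated start, were at hand for 45 of the 52 genes. FANCI, POLD3, MCM5, GINS4, MCM4, RPA3 and RPA2 had none. Capitals mark a match to the E2F motifs TTTCCCGC, TTTCGCGC, TTTGCCGC or TTTGGCGC on either strand, and where matches on opposite strands overlap, the whole stretch is in capitals. UHRF1 (chr19:4909251-4909550, plus strand), ORC6 (chr16:46689409-46689708, plus strand) and CDC6 (chr17:40287629-40287928, plus strand) fell at both times. TIPIN (chr15:66356636-66356935, minus strand) and FANCD2 (chr3:10026187-10026486, plus strand) were higher at both times, and POLD1 (chr19:50384073-50384372, plus strand) was called higher at 24 h. ORC6 and POLD1 have no match in these letters. UHRF1 has 3 windows, TIPIN 2 and POLD1 2, from different annotated starts, and those printed for UHRF1 and TIPIN lie inside the gene. The other TIPIN window, chr15:66386668-66386967 at the outer end of the gene, holds no match. In GENCODE release 29 on GRCh38 all 6 are protein-coding, and the genes span chr19:4903080-4962154 (UHRF1), chr16:46689643-46698394 (ORC6), chr17:40287633-40304657 (CDC6), chr15:66336206-66386746 (TIPIN), chr3:10026414-10101930 (FANCD2) and chr19:50384204-50418016 (POLD1).
UHRF1: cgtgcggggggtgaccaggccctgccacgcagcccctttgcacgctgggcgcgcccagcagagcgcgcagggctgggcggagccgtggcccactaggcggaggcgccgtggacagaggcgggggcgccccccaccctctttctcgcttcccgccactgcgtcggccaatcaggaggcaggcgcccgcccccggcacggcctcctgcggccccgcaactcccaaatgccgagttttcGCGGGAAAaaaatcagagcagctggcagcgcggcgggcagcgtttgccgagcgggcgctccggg
ORC6: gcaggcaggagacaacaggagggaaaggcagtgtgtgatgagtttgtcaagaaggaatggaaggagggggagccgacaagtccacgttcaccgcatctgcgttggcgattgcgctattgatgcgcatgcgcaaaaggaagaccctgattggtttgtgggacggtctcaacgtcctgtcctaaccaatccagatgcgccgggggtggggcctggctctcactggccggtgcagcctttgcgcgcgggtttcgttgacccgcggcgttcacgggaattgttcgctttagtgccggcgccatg
CDC6: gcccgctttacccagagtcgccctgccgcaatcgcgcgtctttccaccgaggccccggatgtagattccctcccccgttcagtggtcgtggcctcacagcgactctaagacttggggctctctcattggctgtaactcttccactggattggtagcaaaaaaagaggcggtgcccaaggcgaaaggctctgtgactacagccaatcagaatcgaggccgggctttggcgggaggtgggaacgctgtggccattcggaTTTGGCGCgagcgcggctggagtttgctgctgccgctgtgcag
TIPIN: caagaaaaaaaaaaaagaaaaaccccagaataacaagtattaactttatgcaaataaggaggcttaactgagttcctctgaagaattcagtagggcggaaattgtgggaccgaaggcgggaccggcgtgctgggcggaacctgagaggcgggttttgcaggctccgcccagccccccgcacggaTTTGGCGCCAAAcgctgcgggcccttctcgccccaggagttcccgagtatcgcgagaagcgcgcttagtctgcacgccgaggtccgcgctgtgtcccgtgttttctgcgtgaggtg
FANCD2: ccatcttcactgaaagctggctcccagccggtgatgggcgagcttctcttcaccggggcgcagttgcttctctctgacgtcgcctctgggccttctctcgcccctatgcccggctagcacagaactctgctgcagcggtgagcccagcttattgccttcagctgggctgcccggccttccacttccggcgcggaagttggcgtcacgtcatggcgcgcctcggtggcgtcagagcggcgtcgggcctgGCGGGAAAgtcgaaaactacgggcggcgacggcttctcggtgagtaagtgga
POLD1: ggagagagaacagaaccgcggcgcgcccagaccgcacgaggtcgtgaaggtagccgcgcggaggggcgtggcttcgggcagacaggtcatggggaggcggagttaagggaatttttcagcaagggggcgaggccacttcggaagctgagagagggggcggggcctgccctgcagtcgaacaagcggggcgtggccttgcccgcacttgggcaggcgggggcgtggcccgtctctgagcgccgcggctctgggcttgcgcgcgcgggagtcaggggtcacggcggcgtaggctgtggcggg

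An E2F motif was found in at least 1 window of 24 of the 45 genes with a window (53.3%), against 7.03% of the 9043 tested genes with one and 3.99% of 27305 genes in all. It was present in 7 of 9 licensing, 12 of 24 fork, 2 of 5 chromatin and 3 of 7 repair genes. The motif stood in both directions of change: 6 of 14 genes higher at 24 h, 10 of 16 lower and 8 of 15 not past the test held it. At 8 h it was in 6 of 14 higher, 6 of 8 lower and 12 of 23 not past the test. Of the 32 matches, 21 began within 60 bases of the start, and 4 pairs overlap on opposite strands, which leaves 28 separate stretches. The cell cycle homology region motif TTTGAA was in none of the 45 genes' windows and in 13.8% of tested genes. CCAAT was in 57.8% of the genes against 43.9%, and the E-box CACGTG in 15.6% against 13.1%. Motifs were read on both strands, and a match describes the letters only.

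Of the 5 licensing genes outside the MCM ring, 4 were lower at 24 h (ORC6, CDC6, DTL and ORC1) and 3 at 8 h (ORC6, ORC1 and CDC6), and none was higher at either time. The remaining one, the MCM loading factor CDT1, had log2 changes of 0.03 ± 0.071 at 24 h and 0.00 ± 0.079 at 8 h, with 95% intervals of -0.12 to 0.19 and -0.17 to 0.17.

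ORC6 encodes the smallest subunit of the origin recognition complex. Its normalised counts were 3697, 3498 and 3835 under AU-15330, against 5562, 5577 and 5771 under DMSO at 24 h. At 8 h they were 3713, 3265 and 3551 under AU-15330, against 5176 and 5741 under DMSO. Every AU-15330 library was below every DMSO library. ORC6 fell by 34.4% at 24 h (log2 change -0.61 ± 0.058, SE; adjusted p = 4.3e-06) and fell by 35.3% at 8 h (-0.63 ± 0.064; adjusted p = 1.47e-05).

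CDC6, the ATPase that brings the MCM ring to the origin complex, had 8478, 7986 and 8398 normalised counts under AU-15330, against 10897, 10415 and 10521 under DMSO at 24 h. At 8 h the values were 7397, 7344 and 7634 under AU-15330, and 8834 and 9122 under DMSO. The groups did not overlap at either time. The log2 change of CDC6 was -0.35 ± 0.036 at 24 h (adjusted p = 8.36e-06) and -0.27 ± 0.040 at 8 h (adjusted p = 0.000302).

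ORC1 encodes an ATPase subunit of the origin complex. It had 4886, 5021 and 5299 normalised counts under AU-15330 and 5638, 5702 and 5603 under DMSO at 24 h. At 8 h it had 4676, 4910 and 4780 under AU-15330 and 5848 and 5877 under DMSO. The AU-15330 libraries were the lower ones throughout, with a log2 change of -0.16 ± 0.039 at 24 h and -0.29 ± 0.043 at 8 h (adjusted p = 0.00554 and 0.000246).

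DTL, a substrate receptor of the ubiquitin ligase that removes CDT1 in S phase, had 13236, 12852 and 14331 normalised counts under AU-15330 and 15702, 14762 and 15528 under DMSO at 24 h, without overlap. At 8 h its groups overlapped, at 14190, 15020 and 14081 under AU-15330 and 15155 and 13422 under DMSO. It passed the test at 24 h (-0.19 ± 0.054; adjusted p = 0.0131), and at 8 h the log2 change was 0.02 ± 0.060 (adjusted p = 0.853). Without AU-15330 replicate 2 at 24 h the call of DTL was lost.

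The 6 subunits of the MCM ring, the motor of the replicative helicase, did not move together. MCM5 and MCM6 were higher at 24 h, by 0.11 ± 0.034 and 0.11 ± 0.025 (log2), and MCM2 was lower, at -0.15 ± 0.038. MCM2 shares 23.6% of its exon bases with another gene, and under quantile normalisation its call at 24 h was lost. MCM3 and MCM7 did not pass at either time, with log2 changes between -0.02 and 0.04. At 8 h MCM4 and MCM5 were higher and MCM2 was lower. The call of MCM5 was lost without replicate 1 of either group at 24 h and in 6 of 22 alternative settings at 8 h, and that of MCM2 at 8 h without DMSO replicate 1 at 8 h.

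MCM4 had 31488, 33214 and 31861 normalised counts under AU-15330 and 32876, 33854 and 31353 under DMSO at 24 h, where the groups overlapped. After 8 h its counts were 35974, 37375 and 36894 under AU-15330, all above the 29756 and 29959 under DMSO. Its log2 change was -0.02 ± 0.034 at 24 h (adjusted p = 0.617) and 0.30 ± 0.038 at 8 h (adjusted p = 8.11e-05).

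**Figure D3:**
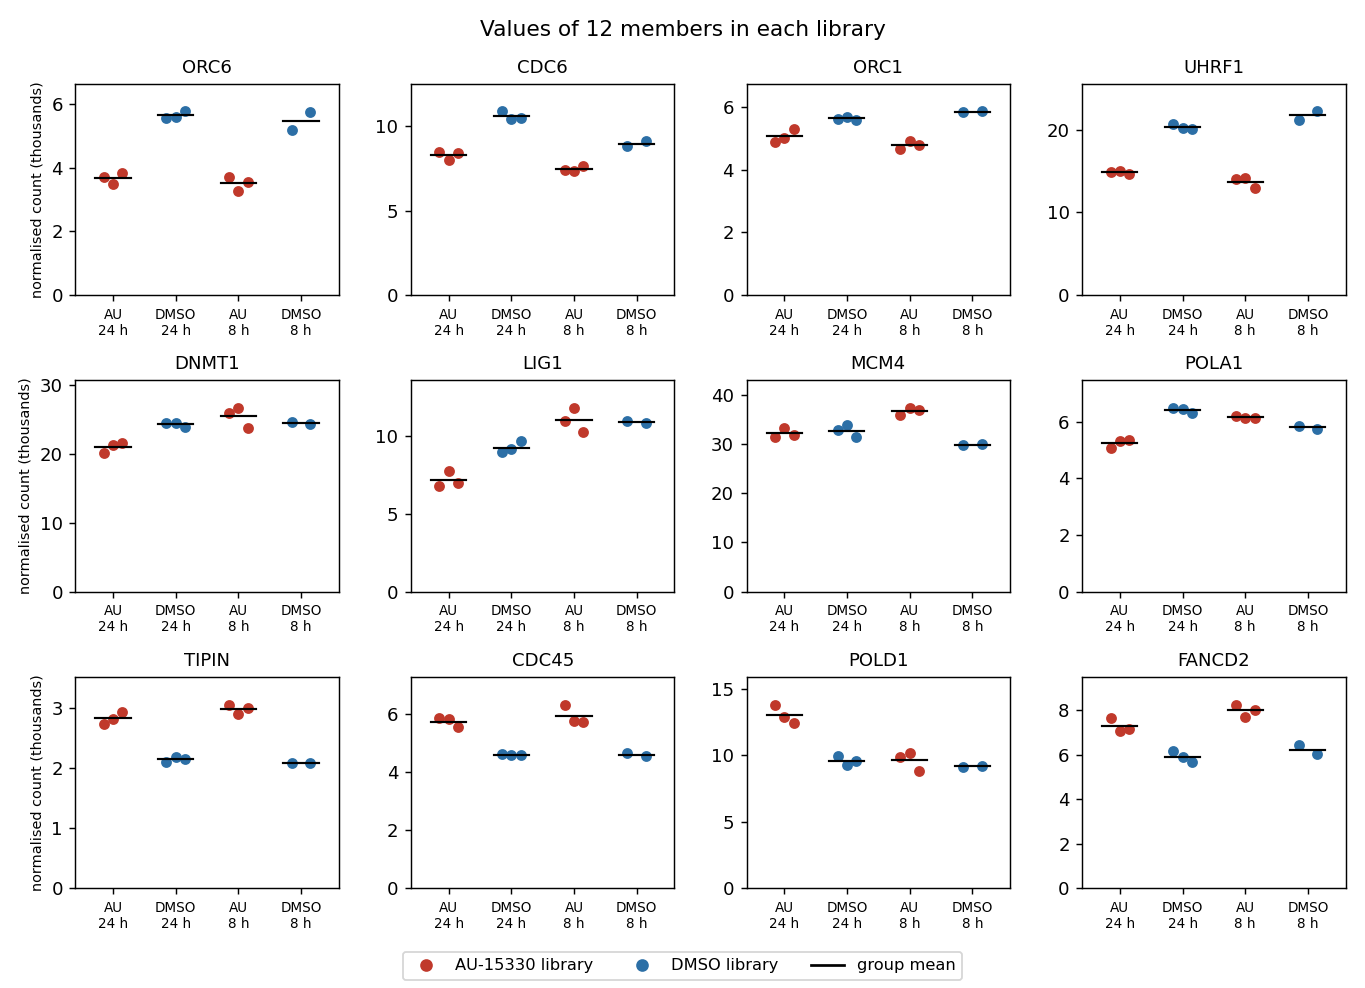
Normalised counts divided by 1000 (vertical axis, from 0) of 12 replication genes in each library, with AU-15330 left of DMSO at 24 h and then at 8 h, and bars at the group means. ORC6, CDC6, ORC1 and UHRF1 are lower with AU-15330 at 24 h and 8 h, TIPIN, CDC45 and FANCD2 are higher at both, and POLA1, LIG1, MCM4, DNMT1 and POLD1 change between the times.

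At the fork, more of the genes that turn the ring into a helicase were called higher than lower at both times. The same held for the polymerase genes. Of all entries, 24.7% were higher and 26.2% lower at 24 h, and 22.9% were higher and 21.4% lower at 8 h. Of 7 helicase activation genes, 3 were higher (CDC45, GINS3 and WDHD1) and GINS2 was lower at 24 h, and 4 were higher (CDC45, GINS3, MCM10 and GINS1) at 8 h. The call of GINS2 at 24 h was lost in 7 of 22 alternative settings, among them quantile normalisation and centring of library medians, and the calls of GINS1 and MCM10 at 8 h in 13 and 6. GINS4, with log2 changes of 0.03 ± 0.057 and -0.08 ± 0.064, passed at neither time. GINS2 and GINS3 encode subunits of the same GINS complex, and their log2 changes at 24 h were -0.13 ± 0.045 and 0.24 ± 0.051.

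CDC45, the GINS partner in the active helicase, had 5848, 5811 and 5527 normalised counts under AU-15330, against 4612, 4583 and 4574 under DMSO at 24 h. The 8 h values were 6316, 5755 and 5706 under AU-15330, against 4644 and 4551 under DMSO. All AU-15330 libraries were above all DMSO libraries, with a log2 change of 0.32 ± 0.044 at 24 h (adjusted p = 0.000137) and 0.36 ± 0.049 at 8 h (adjusted p = 0.000155).

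Of 7 polymerase genes, 5 were higher at 24 h (POLD1, POLE2, POLE, POLD3 and PRIM1) and POLA1 was lower. At 8 h, 4 were higher (POLE2, PRIM1, POLD3 and POLA2) and none lower. POLA2, which shares 35.1% of its exon bases with another gene, lost its call at 8 h in 8 of 22 alternative settings. POLD3 lost its call at 8 h without DMSO replicate 2 of that time, POLE2 at 24 h without DMSO replicate 3 of that time, and PRIM1 at 24 h without AU-15330 replicate 2 or DMSO replicate 1 or 2 of that time.

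POLD1, the catalytic subunit of polymerase delta, which mainly copies the lagging strand, had 13817, 12866 and 12413 normalised counts under AU-15330 and 9948, 9275 and 9587 under DMSO at 24 h. At 8 h the values were 9842, 10198 and 8821 under AU-15330 and 9123 and 9197 under DMSO. The groups stood apart at 24 h and overlapped at 8 h. Its log2 change was 0.44 ± 0.056 at 24 h (adjusted p = 5.49e-05) and 0.07 ± 0.063 at 8 h (adjusted p = 0.418).

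POLE2, an accessory subunit of polymerase epsilon, which mainly copies the leading strand, had 1932, 1914 and 1748 normalised counts under AU-15330 and 1709, 1507 and 1489 under DMSO at 24 h. The 8 h libraries had 2205, 2014 and 2134 under AU-15330 and 1545 and 1693 under DMSO. The AU-15330 libraries were higher at both times, by 0.24 ± 0.069 (log2) at 24 h and 0.38 ± 0.078 at 8 h (adjusted p = 0.0129 and 0.00194). The catalytic subunit POLE was higher at 24 h (0.22 ± 0.051), and its log2 change at 8 h was 0.03 ± 0.057.

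POLA1, the catalytic subunit of polymerase alpha, which makes the primers' DNA part, was the polymerase gene that fell. It had 5061, 5337 and 5353 normalised counts under AU-15330, all below the 6498, 6456 and 6323 under DMSO at 24 h. At 8 h the AU-15330 libraries, at 6217, 6155 and 6141, were above the DMSO libraries, at 5871 and 5764. The log2 change was -0.29 ± 0.034 at 24 h (adjusted p = 3.32e-05) and 0.08 ± 0.038 at 8 h (adjusted p = 0.096). PRIM1, the primase subunit of the same complex, was higher at both times, by 0.12 ± 0.038 (log2) at 24 h and 0.35 ± 0.042 at 8 h, and shares 21.6% of its exon bases with another gene.

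The clamp and its loader were split. PCNA, the clamp, was lower at both times, with log2 changes of -0.13 ± 0.032 at 24 h and -0.21 ± 0.036 at 8 h, and its call at 24 h was lost under quantile normalisation. Within the loader, RFC3 was lower (-0.27 ± 0.047 and -0.20 ± 0.052) and RFC4 higher (0.29 ± 0.058 and 0.30 ± 0.065) at 24 h and 8 h. RFC2 was higher at 8 h (0.27 ± 0.056), with a log2 change of 0.04 ± 0.050 at 24 h that missed the threshold, and RFC1 and RFC5 passed at neither time. The call of RFC3 at 8 h was lost without DMSO replicate 2 at 8 h.

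Both genes of lagging strand maturation were lower at 24 h and neither passed at 8 h. LIG1, the ligase that seals Okazaki fragments, had 6802, 7793 and 6981 normalised counts under AU-15330 and 9012, 9157 and 9672 under DMSO at 24 h. The 8 h libraries had 10988, 11838 and 10313 under AU-15330 and 11016 and 10855 under DMSO. The groups were apart at 24 h, where LIG1 fell by 22.5% (-0.37 ± 0.059; adjusted p = 0.0004), and overlapped at 8 h (0.01 ± 0.066; adjusted p = 0.892). FEN1, the nuclease that trims the flaps between fragments, had log2 changes of -0.15 ± 0.035 at 24 h, a call lost under quantile normalisation, and -0.06 ± 0.039 at 8 h.

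Of the single-strand binding genes RPA1 was higher, and of the fork protection genes TIPIN. The log2 change of RPA1 was 0.09 ± 0.029 at 24 h, a call lost in 5 of 22 alternative settings, and 0.20 ± 0.032 at 8 h, while RPA2 and RPA3 passed at neither time. TIPIN, which pairs with TIMELESS to steady the fork, had 2737, 2815 and 2926 normalised counts under AU-15330 and 2101, 2177 and 2158 under DMSO at 24 h. At 8 h it had 3056, 2903 and 3006 under AU-15330 and 2084 and 2090 under DMSO. TIPIN was higher in every AU-15330 library, by 30.8% at 24 h (0.39 ± 0.044; adjusted p = 2.29e-05) and 41.9% at 8 h (0.51 ± 0.049; adjusted p = 1.05e-05). It shares 21.0% of its exon bases with a ribosomal protein pseudogene on the same strand, so its level is uncertain. Its partner TIMELESS had log2 changes of 0.02 ± 0.026 and 0.06 ± 0.029 and CLSPN, the checkpoint adaptor, 0.08 ± 0.061 and -0.05 ± 0.068, and neither passed.

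Among the chromatin genes, UHRF1 fell most. UHRF1 reads hemimethylated DNA and brings DNMT1 to it. It had 14895, 15082 and 14654 normalised counts under AU-15330, against 20704, 20195 and 20142 under DMSO at 24 h. After 8 h the counts were 13992, 14232 and 12909 under AU-15330, against 21250 and 22270 under DMSO. No AU-15330 library reached the level of a DMSO library. UHRF1 fell by 26.8% at 24 h (-0.45 ± 0.039; adjusted p = 2.19e-06) and fell by 36.9% at 8 h (-0.66 ± 0.043; adjusted p = 4.41e-07).

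DNMT1, the maintenance DNA methyltransferase, had 20065, 21185 and 21556 normalised counts under AU-15330 and 24391, 24451 and 23891 under DMSO at 24 h, all lower under AU-15330. At 8 h the values overlapped, at 25940, 26638 and 23670 under AU-15330 and 24549 and 24346 under DMSO. Its log2 change was -0.21 ± 0.043 at 24 h (adjusted p = 0.00182) and 0.05 ± 0.048 at 8 h (adjusted p = 0.392).

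The large and middle subunits of the CAF-1 chaperone, CHAF1A and CHAF1B, which place new histones on DNA, were called in opposite directions at 24 h. CHAF1B had 4243, 4103 and 3765 normalised counts under AU-15330 and 3156, 3330 and 3286 under DMSO at 24 h, and 3265, 3190 and 3182 under AU-15330 and 2906 and 2617 under DMSO at 8 h. It was higher in every AU-15330 library, with a log2 change of 0.30 ± 0.055 at 24 h (adjusted p = 0.000632) and 0.22 ± 0.061 at 8 h (adjusted p = 0.0171) and the call at 8 h was lost without DMSO replicate 2 at 8 h. CHAF1A had a log2 change of -0.17 ± 0.053 at 24 h (adjusted p = 0.0193), which was lost in 5 of 22 alternative settings, and of -0.07 ± 0.059 at 8 h.

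SLBP, which binds the end of replication-dependent histone RNAs, had 12539, 12052 and 12093 normalised counts under AU-15330 and 12097, 11934 and 11671 under DMSO at 24 h, where the groups overlapped. After 8 h the counts were 12781, 13402 and 13560 under AU-15330, above the 11705 and 12530 under DMSO. Its log2 change was 0.04 ± 0.037 at 24 h and 0.13 ± 0.041 at 8 h (adjusted p = 0.412 and 0.026), and the call at 8 h was lost in 5 of 22 alternative settings.

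Of the 8 repair and checkpoint genes, FANCD2, FANCI and BRCA1 were higher and RAD51AP1 and BLM lower at 24 h. FANCD2 and FANCI form the clamp that is ubiquitinated at crosslinks and stalled forks. FANCD2 had 7657, 7060 and 7151 normalised counts under AU-15330 and 6198, 5906 and 5665 under DMSO at 24 h, and 8269, 7728 and 8038 under AU-15330 and 6428 and 6032 under DMSO at 8 h. It was higher in every AU-15330 library, by 0.30 ± 0.048 (log2) at 24 h and 0.36 ± 0.054 at 8 h (adjusted p = 0.000363 and 0.000241). FANCI had 17966, 16273 and 18998 normalised counts under AU-15330 and 13932, 14564 and 14999 under DMSO at 24 h, again without overlap (0.29 ± 0.065; adjusted p = 0.0032). At 8 h its log2 change was 0.19 ± 0.073 (adjusted p = 0.0509).

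RAD51AP1, which acts in homologous recombination, had 3242, 2819 and 2829 normalised counts under AU-15330 and 3708, 3455 and 3768 under DMSO at 24 h. All AU-15330 libraries were lower, with a log2 change of -0.29 ± 0.060 (adjusted p = 0.0015), against -0.15 ± 0.067 at 8 h (adjusted p = 0.1). The helicase gene BLM was lower at 24 h (-0.22 ± 0.047) and had a log2 change of -0.07 ± 0.053 at 8 h. BRCA1, a scaffold of recombination repair, was higher at 24 h with overlap between the groups (0.20 ± 0.073; adjusted p = 0.0433), and 9 of 22 alternative settings lost the call.

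EXO1, a nuclease of mismatch repair and end resection, had 7354, 7806 and 7746 normalised counts under AU-15330 and 7860, 8139 and 8366 under DMSO at 24 h. After 8 h the counts were 7732, 8146 and 7992 under AU-15330 and 8727 and 8817 under DMSO. The AU-15330 libraries were lower at both times, and the test was passed at 8 h (-0.14 ± 0.042; adjusted p = 0.0187) and not at 24 h (-0.09 ± 0.038; adjusted p = 0.0726). The call at 8 h was lost without AU-15330 replicate 1, DMSO replicate 1 or DMSO replicate 2 of that time. BRCA2 and the checkpoint scaffold TOPBP1 passed at neither time, with log2 changes of 0.11 for both at 24 h and of 0.21 and 0.15 at 8 h.

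Set side by side, 11 genes were higher at both times, 7 were lower at both, 12 passed at neither and none was called in opposite directions. At 24 h alone 6 genes were called higher and 9 lower, and at 8 h alone 6 higher and 1 lower. A call at 24 h alone does not show that the effect differed between the times, which needs the test of the difference itself. That test, the AU-15330 effect at 24 h minus the effect at 8 h, passed for 7 genes, 2 with a higher and 5 with a lower value at 24 h, where 7.54% and 11% of all entries passed in these directions (18.5% in either). The difference is confounded with the batch, and 45 genes did not pass.

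LIG1 had the largest difference, -0.38 ± 0.089 (log2, adjusted p = 0.0155), since it was lower under AU-15330 at 24 h and at the DMSO level at 8 h. POLA1 differed by -0.37 ± 0.051 (adjusted p = 0.000791), MCM4 by -0.32 ± 0.051 (adjusted p = 0.00181) and DNMT1 by -0.27 ± 0.065 (adjusted p = 0.0174). POLD1 differed the other way, by 0.37 ± 0.084 (adjusted p = 0.0114), being higher at 24 h and not past the test at 8 h. PRIM1 (-0.24 ± 0.057; adjusted p = 0.0182) was higher under AU-15330 at both times and less so at 24 h, and UHRF1 (0.21 ± 0.058; adjusted p = 0.0256) was lower at both and less so at 24 h. No licensing factor other than MCM4 and no repair gene passed this test. The differences of MCM4, POLA1 and POLD1 passed under all 22 alternative settings. Without DMSO replicate 2 at 8 h, those of LIG1, DNMT1 and UHRF1 were lost and 1 higher and 3 lower remained called. UHRF1 was also lost without AU-15330 replicate 2, DMSO replicate 2 or DMSO replicate 3 at 24 h, which left 1 gene called higher. PRIM1 was lost without DMSO replicate 1 at 8 h. Under quantile normalisation the calls of LIG1, DNMT1 and PRIM1 were lost, and the count was 5 higher and 2 lower. All entries then gave 1036 higher and 971 lower, against 959 and 1400 before.

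**Figure D4:**
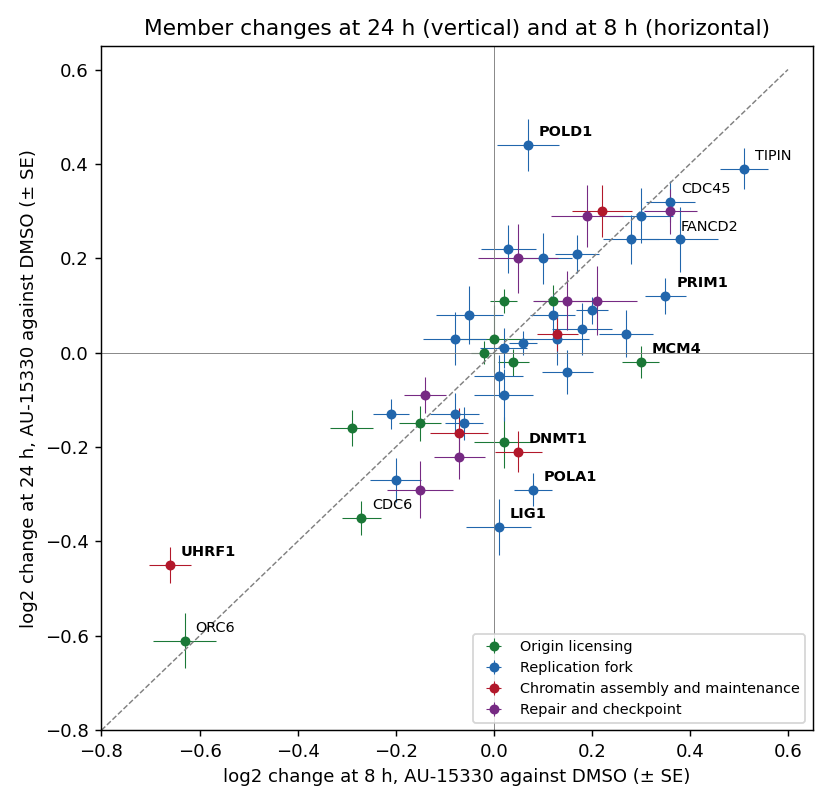
Log2 change under AU-15330 against DMSO of the 52 genes at 24 h (vertical axis) and at 8 h (horizontal axis), ± SE, coloured by role, with the line of equal change dashed. Names in bold mark the 7 genes whose change differed between the times. POLD1 lies above the line and LIG1, POLA1, MCM4 and DNMT1 below it.

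In DMSO cells alone, 12 replication genes were higher at 24 h than at 8 h and LIG1 was lower, where 6.56% of all entries were higher and 3.56% lower (10.1% in either direction). The largest rises were those of PRIM1 (0.26) and of CDC6 and RAD51AP1 (0.24 each) on the log2 scale. Under quantile normalisation all entries gave 704 higher and 635 lower. The counts of replication genes moved widely with the settings. They were 3 higher and 2 lower under quantile normalisation, and leaving out any 1 of the DMSO libraries gave 3 to 6 higher and none lower. Without AU-15330 replicate 3 at 8 h or replicate 2 at 24 h, 7 were higher, and without AU-15330 replicate 1 at 8 h none was lower. In AU-15330 cells 12 genes were higher at 24 h than at 8 h and 10 were lower, against 18.3% and 21.1% of all entries (39.4% in either direction). LIG1 (-0.62) and POLD1 (0.44) moved most. Under quantile normalisation the split was 21 higher and 5 lower, where all entries gave 2393 higher and 2449 lower. Both time comparisons share libraries with the treatment comparisons and are confounded with the batch. Without AU-15330 replicate 3 at 8 h 6 genes were higher, without AU-15330 replicate 1 at 24 h 7 were higher, and without AU-15330 replicate 2 at 24 h 6 were lower in AU-15330 cells.

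Related genes outside the 52 are given by lists. Of all entries, 50.9% were called at 24 h and 44.2% at 8 h. Of 27 further replication genes, 11 were higher and 7 lower at 24 h (66.7% called), and 6 were higher and 2 lower at 8 h (29.6%). Among them ORC4, another subunit of the origin complex, fell (-0.86 ± 0.087 at 24 h and -0.77 ± 0.097 at 8 h). The subunits ORC2, ORC3 and ORC5, named after their values were seen, were not called lower, ORC3 being higher at 24 h (0.27 ± 0.058) and the others past the test at neither time. Also in that list, DNA2, a flap nuclease, rose (0.58 ± 0.040 and 0.40 ± 0.045). DONSON, a helicase assembly factor, rose at 24 h (0.46 ± 0.058), and its log2 change at 8 h was 0.07 ± 0.065. Of 8 further chromatin genes, 3 were higher and 3 lower at 24 h, and 2 were higher and 4 lower at 8 h (75% called at each time). In that list CDCA7, which activates the remodeller HELLS, fell (-0.60 ± 0.040 and -0.44 ± 0.045), the histone chaperone ASF1B fell (-0.26 ± 0.051 and -0.22 ± 0.057) and the histone acetyltransferase HAT1 rose (0.19 ± 0.038 and 0.24 ± 0.043).

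Of 27 further repair genes, 10 were higher and 5 lower at 24 h, and 7 were higher and 1 lower at 8 h. The share called was 55.6% at 24 h and 29.6% at 8 h, against 50.9% and 44.2% of all entries. The checkpoint clamp gene HUS1 rose (0.45 ± 0.054 at 24 h and 0.70 ± 0.060 at 8 h), as did the Fanconi anaemia core genes FANCC (0.41 ± 0.056 and 0.47 ± 0.063) and FANCL (0.40 ± 0.067 and 0.40 ± 0.075). Of 7 nucleotide supply genes, 2 were higher and 2 lower at 24 h, and 3 were higher and 1 lower at 8 h (57.1% called at each time). The small ribonucleotide reductase subunit RRM2 rose (0.32 ± 0.050 at 24 h and 0.40 ± 0.056 at 8 h) and thymidylate synthase TYMS fell (-0.38 ± 0.026 and -0.40 ± 0.029).

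**Figure D5:**
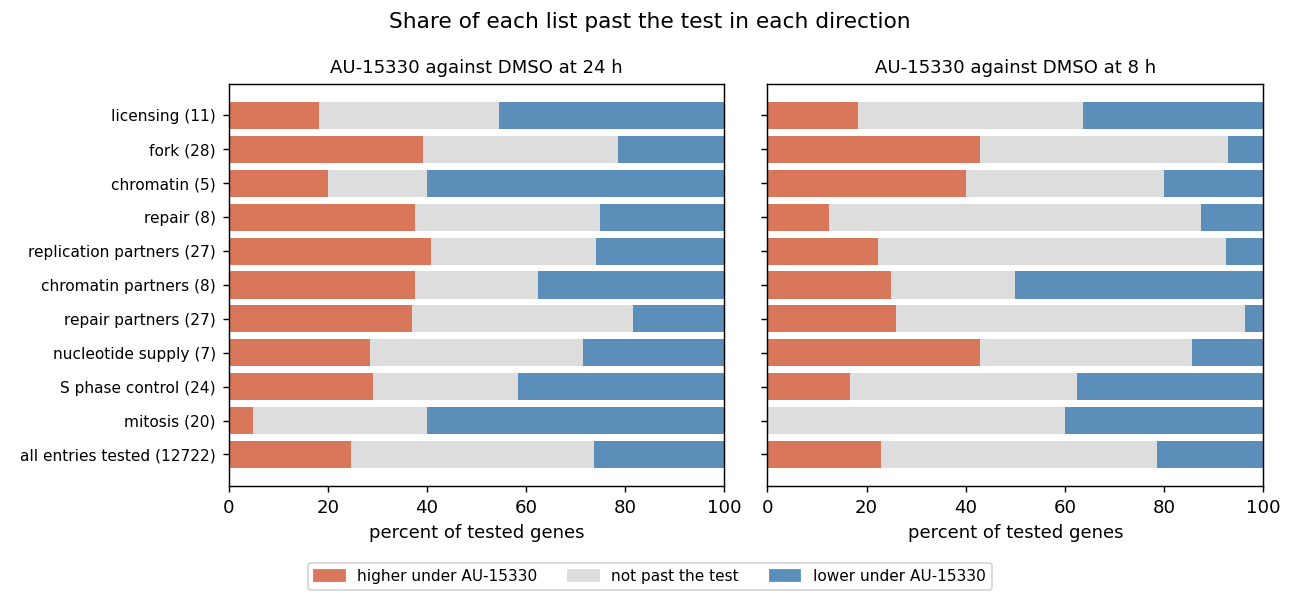
Percent of tested genes (horizontal axis) higher (red), not past the test (grey) and lower (blue) under AU-15330 at 24 h (left) and 8 h (right), for the 4 roles, 6 lists of related genes and all entries tested, with the number of genes in parentheses. The mitosis list has the smallest share of genes higher, 1 of 20 at 24 h and 0 of 20 at 8 h.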

How the data were processed

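RNA of Z138 cells was sequenced as reads of 50 bp. Per the labels, a TruSeq kit with either poly(A) selection or ribosomal depletion was used, not told apart by sample. Per the submitters' processing notes, tools were kallisto 0.46.1, DESeq2 1.24.0 in R 4.3.2, Trimmomatic 0.40 and FastQC 0.11.9, with GRCh38.p13. The deposited values are on a log2 scale. They run from 10.36, the same lowest value in all libraries, to 20.2, as a variance-stabilising transform of normalised counts does, and not log CPM.

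The transform was inverted to normalised counts, of which 59.4 equal 1 CPM. Of values up to 20 counts, 54.2% to 56.6% came within 0.02 of being whole, so no count model was used. Entries at 1 CPM or more in at least 3 of 11 libraries were tested, 12722 (62.6%). limma 3.58.1 under R 4.3.3 was fitted with 1 mean per group, a mean-dependent variance prior and 7 residual degrees of freedom. Adjusted p-values (Benjamini-Hochberg, threshold 0.05) come from the deposited scale, and log2 changes with SE from log2(normalised count + 60), which understates changes of low genes. The planned design assumed 12 libraries, and 1 duplicate column was not used.

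Same-numbered replicates deviated together weakly at most (15 pairs, r of -0.04 to 0.13), and no block was used. The 52 genes and all lists were chosen with earlier results of these data known. All 52 may be named. Library values are given for the 3 genes per role with the largest change among those past the test in each treatment comparison and for the 5 with the largest difference between times. Outside them, the degrader's targets and the 3 genes per list with the smallest p at 24 h are named, except 1 that is not reported here. Whether counting used strand was not stated, and 24 of the 52 genes share exon bases with another gene in GENCODE 29 (7 over 10%). The procedure was tested on simulated data. Motifs were searched in RefSeq windows. Alternatives numbered 22, and 11 of them left out a library. Figures were drawn with Matplotlib 3.10.9, and tables made with Python 3.11.15 (NumPy 2.4.6, pandas 2.3.3).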

Additional observations from a re-analysis of the deposited data

Results flagged for a closer look

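For 16 genes the AU-15330 effect at 24 h differed from that at 8 h by a test of the difference itself (limma, Benjamini-Hochberg adjustment over all 12722 entries). Each value is the log2 effect at 24 h minus the log2 effect at 8 h. Of the 52 replication genes, the difference was higher for POLD1 (0.37) and UHRF1 (0.21). It was lower for LIG1 (-0.38), POLA1 (-0.37), MCM4 (-0.32), DNMT1 (-0.27) and PRIM1 (-0.24). Of the related genes named, it was higher for CCNE1 (0.40, adjusted p = 0.0194), DONSON (0.39, adjusted p = 0.0086) and DNA2 (0.19, adjusted p = 0.0426). It was lower for SMARCA2 (-0.39, adjusted p = 0.0314), RB1 (-0.38, adjusted p = 0.00159) and HUS1 (-0.25, adjusted p = 0.0355). CDKN1A (0.75, adjusted p = 0.000634), ASF1A (0.68, adjusted p = 0.000449) and E2F8 (0.55, adjusted p = 0.00379) were picked after their values were seen. The times are also the batches, so a difference between times cannot be told apart from a difference between batches.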

How the results depend on the processing

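Under 22 alternative settings no called value of the 52 genes changed direction. Calls held in all 22 for 22 of 33 genes at 24 h, 15 of 25 at 8 h and 3 of 7 for the difference between times. Quantile normalisation moved the time comparisons most: the difference gave 5 higher and 2 lower with a median of 0.03 (log2), DMSO at 24 h against 8 h gave 3 higher and 2 lower, and AU-15330 at 24 h against 8 h gave 21 higher and 5 lower with a median of 0.11. For DMSO at 24 h against 8 h, 6 were higher and 0 lower with no filter, 4 were higher with only the groups of the comparison fitted, and 0 were lower on log2(normalised count + 5). Over all entries, quantile normalisation gave 1036 higher and 971 lower for the difference, 704 and 635 for DMSO over time, and 2393 and 2449 for AU-15330 over time. The cause was not tested. With the replicate number as a block, calls were 17 higher and 17 lower at 24 h, 13 and 8 at 8 h, 2 and 5 for the difference, 13 and 10 for AU-15330 over time, and 9 and 0 for DMSO over time. With the second DMSO column at 8 h taken as replicate 3 in that block, a setting chosen after seeing the data, 7 were higher for DMSO over time. Only 1 of 15 same-numbered pairs had a correlation over 0.1. Those pairs ran from -0.04 to 0.13, and the 30 pairs with different numbers from -0.1 to 0.07. Values this weak do not settle whether same-numbered samples were paired. Leaving out each library in turn gave 13 to 17 higher and 13 to 16 lower at 24 h, 11 to 17 and 6 to 9 at 8 h, 1 to 3 and 3 to 7 for the difference, 3 to 12 and 0 to 1 for DMSO over time, and 6 to 12 and 6 to 11 for AU-15330 over time. Medians then ran from 0.00 to 0.03 at 24 h, 0.04 to 0.07 at 8 h, -0.06 to -0.04 for the difference, 0.04 to 0.07 for DMSO and 0.03 to 0.05 for AU-15330 over time. Without a DMSO library at 8 h the lone one left is assumed to vary like the other groups. With 2 or 3 libraries a group, small changes can be missed.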

Other observations

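Genes that set the timing of S phase moved in both directions under AU-15330. Of 24 such genes, 7 were higher and 10 lower at 24 h and 4 were higher and 9 lower at 8 h, where 50.9% and 44.2% of all entries were called. RB1, the pocket protein that restrains E2F, fell (log2 change -0.66 ± 0.039 at 24 h and -0.28 ± 0.043 at 8 h, SE). TFDP1, a DNA-binding partner of many E2F factors, also fell (-0.30 ± 0.031 and -0.23 ± 0.034). CCNE1, cyclin E1, rose at 24 h (0.59 ± 0.073) and had a log2 change of 0.19 ± 0.081 at 8 h. Of the 8 E2F genes in that list, 4 were higher and 4 lower at 24 h, and 2 were higher and 4 lower at 8 h. Picked after their values were seen, E2F1 fell (-0.23 ± 0.039 at 24 h and -0.28 ± 0.044 at 8 h) and so did E2F7 (-0.51 ± 0.076 and -0.62 ± 0.085), while E2F3 (0.25 ± 0.042 and 0.19 ± 0.047) and E2F5 (0.32 ± 0.079 and 0.40 ± 0.088) rose. E2F8 was higher at 24 h (0.18 ± 0.066) and lower at 8 h (-0.37 ± 0.074). Picked in the same way, the CDK inhibitor CDKN1A fell (-0.34 ± 0.063 and -1.09 ± 0.070) and the histone chaperone ASF1A fell (-0.23 ± 0.052 and -0.90 ± 0.058).

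Mitosis genes were mostly lower or not past the test. Of 20, 1 was higher and 12 lower at 24 h, and 0 were higher and 8 lower at 8 h. The share lower was 60% at 24 h and 40% at 8 h, against 26.2% and 21.4% of all entries. The DNA topoisomerase TOP2A fell (-0.54 ± 0.051 and -0.40 ± 0.057), as did the mitotic kinase PLK1 (-0.39 ± 0.050 and -0.43 ± 0.055) and HMMR, a spindle protein (-0.37 ± 0.039 and -0.53 ± 0.044). CDK1 was the gene higher at 24 h (0.13).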
